A study of Homo sapiens with 3 samples.

Results

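The S100 calcium-binding proteins were read as 10 genes of the 62754 in the deposited table: S100A2, S100A4, S100A6, S100A7, S100A8, S100A9, S100A10, S100A11, S100A14 and S100A16. The family was selected on these same values, since S100A2 is among the highest genes, so the levels are given as a description with no test. RNA-seq was measured in 3 replicates of MCF10A, a human breast epithelial line that is immortalized but does not form tumours. All replicates carry the empty vector of an inducible retroviral expression system under puromycin selection, received no doxycycline or other treatment, were sampled during exponential growth and belong to 1 batch. The empty vector holds no gene of interest. There is thus no second group, and nothing in the labels says whether the replicates came from separate cultures.

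S100 proteins are small proteins with a pair of EF hands, the helix-loop-helix motif that binds calcium. Most form dimers, and calcium opens a hydrophobic face on the dimer that binds target proteins such as annexins and the cytoskeleton. Some are also released from cells, where S100A8 and S100A9 together form calprotectin, which withholds metal ions from microbes and engages the receptors TLR4 and RAGE. Many of the genes lie side by side on chromosome 1, next to the genes of the cornified envelope, and are known for distinct patterns in basal and differentiated epithelium.

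The unit is TPM, the usual measure of transcript abundance and a level per length: read numbers are divided by a transcript length and scaled so that each replicate sums to 1000000. With gene lengths from GENCODE release 44 the values returned whole reads, 15273329, 15446347 and 11166546 in replicates 1, 2 and 3. At a length of 500 bases, 1 read was worth 0.379, 0.369 and 0.446 TPM. All 6 markers of basal epithelial cells were above 1 TPM, from 133 ± 12.7 TPM for CDH3 to 6612 ± 889.9 TPM for KRT5 (SD, n = 3 each). Among all protein-coding genes of the nuclear genome 56.6% had a mean of at least 1 TPM. These are mixed RNAs of whole cultures, in which fewer cells of a type and less RNA per cell cannot be told apart.

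All 10 genes were on chromosome 1 (hg38), 9 of them on the minus strand. In the canonical transcript 9 had 3 exons and 8 had 2 coding exons, with S100A14 on 4 exons and with S100A11 and S100A14 on more than 2 coding exons. The coding sequence ran from 90 codons in S100A6 to 114 in S100A9. No exonic base of any of the 10 canonical transcripts was shared with another annotated gene on either strand. The 100 bases before the transcription start of 7 genes are given here to let the start regions be compared between S100A2, S100A6 and S100A10, which had the highest deposited levels, and the 4 members in which the search described next found TATAAA. They are from RefSeq on GRCh38.p14, read 5′ to 3′ on the strand of the gene. For all 10 members the start used was the first base of the GENCODE canonical transcript. S100A8 had 3 listed starts and S100A2 and S100A16 had 2 each, and the windows of their other starts are not given here.
S100A2: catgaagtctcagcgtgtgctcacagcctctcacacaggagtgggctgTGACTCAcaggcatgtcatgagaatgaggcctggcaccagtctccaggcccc
S100A6: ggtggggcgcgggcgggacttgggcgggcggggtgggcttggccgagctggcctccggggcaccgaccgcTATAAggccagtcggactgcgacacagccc
S100A10: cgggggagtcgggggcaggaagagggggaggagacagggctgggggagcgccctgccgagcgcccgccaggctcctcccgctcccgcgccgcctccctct
S100A4: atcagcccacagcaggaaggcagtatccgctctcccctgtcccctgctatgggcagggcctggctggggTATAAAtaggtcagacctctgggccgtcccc
S100A9: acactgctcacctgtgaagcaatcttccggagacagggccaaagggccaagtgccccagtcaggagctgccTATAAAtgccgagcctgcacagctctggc
S100A8: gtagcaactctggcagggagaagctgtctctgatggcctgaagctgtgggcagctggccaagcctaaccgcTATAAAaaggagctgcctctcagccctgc
S100A7: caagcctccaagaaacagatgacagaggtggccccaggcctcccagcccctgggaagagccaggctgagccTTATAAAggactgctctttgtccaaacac
These lie at chr1:153565845-153565944 (S100A2), chr1:153535992-153536091 (S100A6), chr1:151993860-151993959 (S100A10), chr1:153545807-153545906 (S100A4), chr1:153357754-153357853 (S100A9), chr1:153391074-153391173 (S100A8) and chr1:153460652-153460751 (S100A7), on the minus strand except for S100A9.

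Capitals in these sequences mark the letters searched on both strands, which were TGANTCA, the short form TATAA and its longer form with a further A. The longer form, TATAAA, the core of a TATA box, was found in 4 of 10 members, S100A4, S100A7, S100A8 and S100A9, and began 28 to 31 bases before the start in each. Of 35116 promoter windows of the same length, 4.99% held it on either strand. The shorter form, which every match of the longer one holds, was found in 6 of 10 members and in 3161 of the 35116 windows, the further ones being S100A6 at 30 and S100A14 at 29 bases before the start. In S100A7 it matched on both strands at overlapping positions. TGANTCA, the letters bound by AP-1 factors, was found in S100A2 only among the members, 52 bases before the start, against 2.75% of all windows. The 4 members with TATAAA were the 4 with the lowest levels, an arrangement seen after the levels were known and not tested.

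Each replicate had 9 of the 10 members at or above 1 TPM, and S100A7 had no reads. Among all genes of the table, 24.9% had a mean of at least 1 TPM, and among protein-coding genes of the nuclear genome 56.6%. These shares are also the background for such counts in the gene lists below. Summed over the members, the level was 1.76%, 1.74% and 1.71% of the total in replicates 1, 2 and 3.

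S100A2, a nuclear and cytoplasmic member known from the basal layer of stratified epithelia, was measured at 5374, 5040.4 and 5820 TPM in replicates 1, 2 and 3. Replicate 3 was the highest. The mean was 5411 ± 391 TPM (SD, n = 3) from 25421 to 27586 reads per replicate, and its rank among all genes was 10 by the mean and 10, 12 and 9 in the replicates. The genes most like it, by the distance of log2(TPM + 1) over the 3 replicates, were MT-ND4 (distance 0.37), GAPDH (0.42) and HSPA8 (0.53). With 3 replicates of 1 condition this is likeness in level, and no correlation can be given.

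The annexin-binding members followed. S100A6, which binds calcyclin-binding protein and annexins, was measured at 3665, 3693 and 3911 TPM, with a mean of 3756 ± 134 (SD, n = 3). As deposited, this was the smallest relative spread of the members with reads, at 3.58%. S100A10, the partner of annexin A2 and a member whose EF hands do not bind calcium, was measured at 2942, 2968 and 2572 TPM, with a mean of 2828 ± 221 (SD, n = 3). S100A11, which binds annexin A1, was measured at 2581, 2795 and 2264 TPM, with a mean of 2547 ± 267 (SD, n = 3). Of the 50-base windows of its canonical transcript, 2.33% also occur in another gene, ENSG00000228974. Replicate 3 was the highest for S100A6 and the lowest for S100A10 and S100A11.

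S100A16 and S100A14, neighbouring genes of broad epithelial expression, formed the middle of the range. S100A16 was measured at 1619.8, 1652 and 1312 TPM, a mean of 1528 ± 188 (SD, n = 3). S100A14 was measured at 687, 659 and 564 TPM, a mean of 636 ± 64.4 (SD, n = 3). In both genes replicate 3 was the lowest.

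Of the calprotectin pair, S100A9 was measured at 449, 397 and 386 TPM, a mean of 411 ± 33.9 (SD, n = 3), and S100A8 at 96.9, 82.4 and 113 TPM, a mean of 97.4 ± 15.3 (SD, n = 3). S100A9 was the higher in every replicate, and the ratio of S100A8 to S100A9 was 0.216, 0.207 and 0.293. Both genes are abundant in neutrophils and monocytes, so myeloid markers were read beside them. Of 8 such markers 1 was at or above 1 TPM, CD14 at 2.89, 1.91 and 1.09 TPM. LYZ had 1.02, 1.12 and 0.750 TPM and MPO 0.592, 0.461 and 0.696 TPM, and without replicate 3 the count was 2 in place of 1. PTPRC, the leukocyte antigen CD45, had 0.0792, 0.0771 and 0.0621 TPM and FCGR3B and AIF1 had no reads. The summed level of the 8 markers was 2.59 to 4.86 TPM.

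S100A4, also called metastasin, which binds non-muscle myosin and is high in fibroblasts and motile cells, was measured at 155, 122 and 177 TPM. The mean was 152 ± 27.9 TPM (SD, n = 3), the largest relative spread of the members at 18.4%. Counting error for its 498 to 617 reads per replicate gives 4.18%. In all 9 members with reads the spread between replicates as deposited was above the counting error. That error lay between 0.614% for S100A2 and 5.36% for S100A8. The deposited spread includes the difference of replicate 3 in the whole table, described below. With protein-coding nuclear genes scaled to the same sum in each replicate, the median SD of log2(TPM + 1) over the 9 members was 0.09 in place of 0.15. The comparison with counting error was not repeated on that scale.

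S100A7, or psoriasin, a marker of inflamed and differentiated epithelium, had 0 reads in each replicate. Since its longest transcript is only 439 bases by the length used here, a count of 0 allows up to 1.30, 1.26 and 1.52 TPM in replicates 1, 2 and 3, with 3 reads per replicate as the limit for counting error only. Of the 50-base windows of its canonical transcript, 17.6% also occur in its paralog S100A7A, so that reads from there could not be assigned to either gene with certainty. S100A7A had no reads either.

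**Figure D1:**
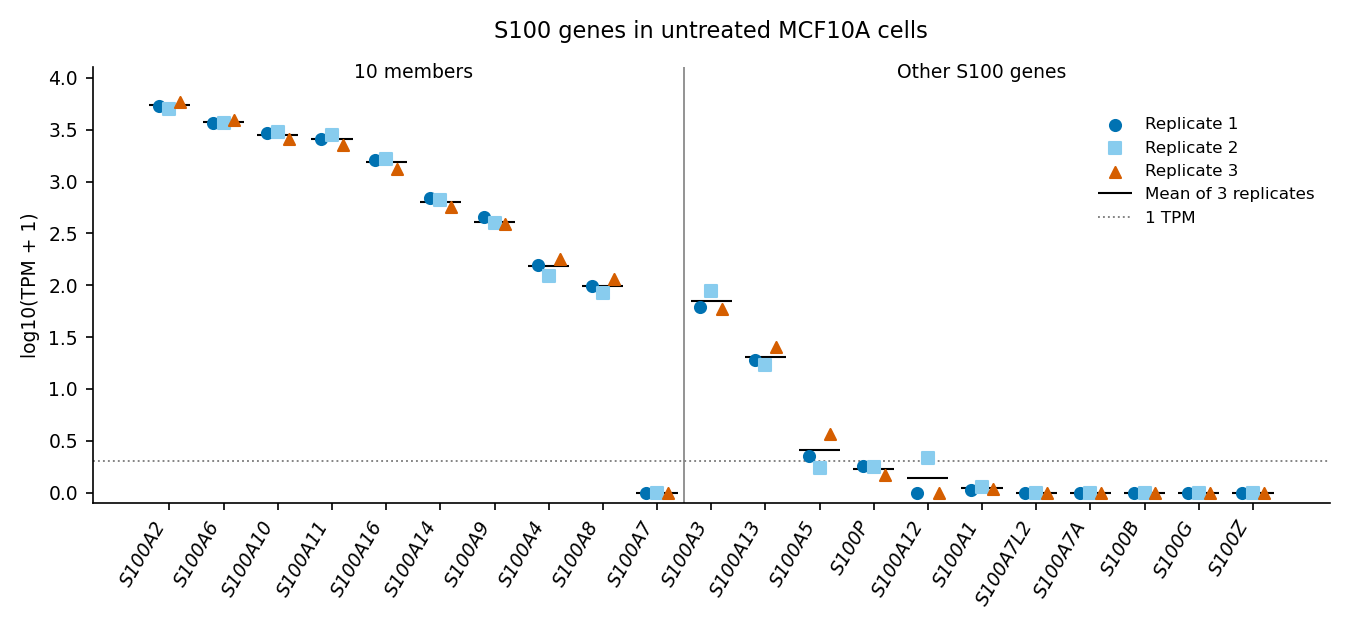
Level of each S100 gene as log10(TPM + 1) in replicates 1, 2 and 3 (points) with their mean (horizontal lines), for the 10 members at the left and the 11 other S100 genes at the right. Of the members 9 lie between 97.4 and 5411 TPM by the mean, S100A7 lies at 0, and among the others S100A3 is the highest as deposited at 68.7 TPM.

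The order of the members by level was S100A2, S100A6, S100A10, S100A11, S100A16, S100A14, S100A9, S100A4, S100A8 and S100A7 in each of the 3 replicates. Each step between neighbours was larger than the larger SD of the pair. The closest neighbours were S100A10 and S100A11, whose means differed by 281 TPM, a ratio of 1.11, with SDs of 221 and 267 TPM. The SD of their difference within replicates was 96.8 TPM (n = 3).

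This order depends on the transcript length that TPM is divided by. The deposited values correspond to the longest annotated transcript of each gene, which was also the canonical one for 5 members. It was 670 against 431 bases for S100A6, 753 against 510 for S100A4, 715 against 405 for S100A8, 1213 against 1050 for S100A14 and 439 against 426 for S100A7. When TPM was made again with canonical lengths for all genes, S100A6 was measured at 4610.4, 4643 and 5030.2 TPM and S100A2 at 4348, 4077 and 4816 TPM. S100A6 was then the higher in every replicate, by a mean of 348 TPM, with an SD of 191 TPM for the difference within replicates (n = 3). That mean is less than the SD of 374 TPM of S100A2 alone. The other members followed in the same order, and S100A4 and S100A8 were at 183 ± 35.6 and 140.3 ± 23.7 TPM (SD, n = 3 each). The ratio of S100A8 to S100A9 was 0.421 ± 0.0831 (SD, n = 3) in place of 0.239 ± 0.0471 (SD, n = 3). Canonical lengths assume that all reads of a gene come from the canonical transcript, which was not tested.

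**Figure D2:**
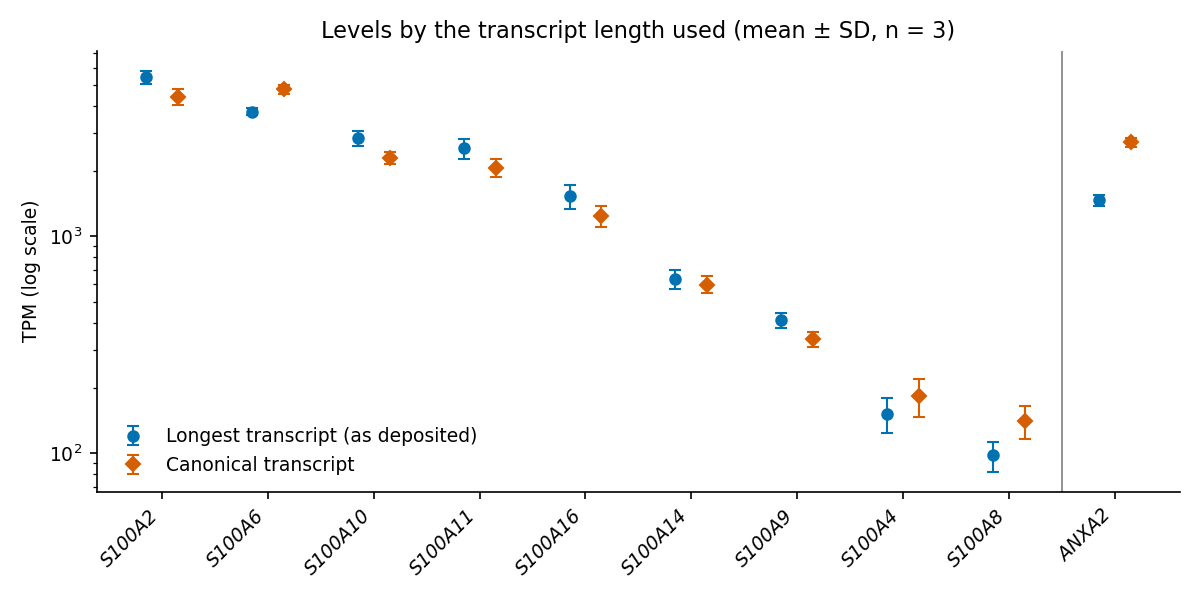
Mean TPM (log scale) of the 9 members with reads and of ANXA2, with error bars of 1 SD over 3 replicates, by the longest transcript as deposited (circles) and by the canonical transcript (diamonds). S100A2 is above S100A6 with the longest transcript at 5411 against 3756 TPM and below it with the canonical one at 4414 against 4761 TPM, and ANXA2 moves from 1465 to 2725 TPM.

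The other 11 S100 genes of the family were mostly low. Of these, 3 had a mean of at least 1 TPM, 2 of them in every replicate, and 5 had no reads. S100A3, a cysteine-rich member known from hair cuticle, was measured at 61.1, 87.2 and 57.9 TPM, with replicate 2 the highest. S100A13, which takes part in the release of FGF1, was measured at 17.9, 16.1 and 24.4 TPM, with 47.2% of its canonical transcript in exons of another gene on the same strand. With canonical lengths S100A13 was at 73.0 TPM and above S100A3 at 56.0 TPM, since its longest transcript is 2179 against 474 bases. Neither S100A3 nor S100A13 is among the 10 members, although both were above S100A7 on both scales.

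S100A5 rested on 5, 3 and 9 reads at 1.26, 0.735 and 2.67 TPM, a mean of 1.55 ± 0.998 (SD, n = 3). Without replicate 3, 2 in place of 3 of these genes had a mean of at least 1 TPM. S100P and S100A12 had 1 to 3 reads in the replicates where they had any. S100A1 had 1, 2 and 1 reads, and 50.4% of its canonical transcript overlaps genes on the opposite strand, S100A13 among them. S100A7A, S100A7L2, S100B, S100G and S100Z had no reads. S100B is the member of glia and melanocytes, whose marker SOX10 had no reads either, and of 6 such markers 1 was at or above 1 TPM, MITF at 3.65 ± 0.761 TPM (SD, n = 3). None of the 7 fused-type S100 genes, the large filament-binding proteins of the cornified layer such as FLG, reached 1 TPM. TCHH was the highest at 0.268 ± 0.134 TPM (SD, n = 3).

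The position of the genes was read next. From S100A10 to S100A1, chr1:151982915-153632039 in hg38, lie 1649 kb. The annotation holds 17 listed S100 genes there, the 10 members and 7 others, among them S100A7L2, which is annotated as an unprocessed pseudogene. The remaining 74 are called other genes and include the 7 fused-type genes and the pseudogenes S100A7P1 and S100A15A. Of the 17 S100 genes 12 had a mean of at least 1 TPM, but the family was selected on these same values. Of the 74 other genes 4 reached that mean, 3 of them among the 47 that are protein-coding. The share among all protein-coding genes of the nuclear genome was 56.6%. The S100 genes of the span held 17456 TPM in all and the other genes 26.3 TPM. The highest of the latter were SPRR1B, a cornified envelope precursor, at 8.71 ± 2.60 TPM, the lncRNA gene ENSG00000285867 at 7.50 ± 2.41 TPM and LCE3D, also of the cornified envelope, at 2.78 ± 1.36 TPM (SD, n = 3 each).

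Levels changed sharply between some adjacent S100 genes and little between others. S100A10 and S100A11 stand 38.6 kb apart at 2828 and 2547 TPM, and 1310 kb separate S100A11 from S100A9, a stretch that holds the 7 fused-type genes. S100A12, at 0.383 TPM from 3 reads, lies between S100A9 and S100A8. S100A7A, S100A7L2 and S100A7 had no reads, and 73.9 kb further on S100A6 was at 3756 TPM. S100A5, only 0.902 kb from S100A6, was at 1.55 TPM. S100A2 lies 11.8 kb from S100A3, and S100A16 and S100A14 lie 1.11 kb apart at 1528 and 636 TPM.

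**Figure D3:**
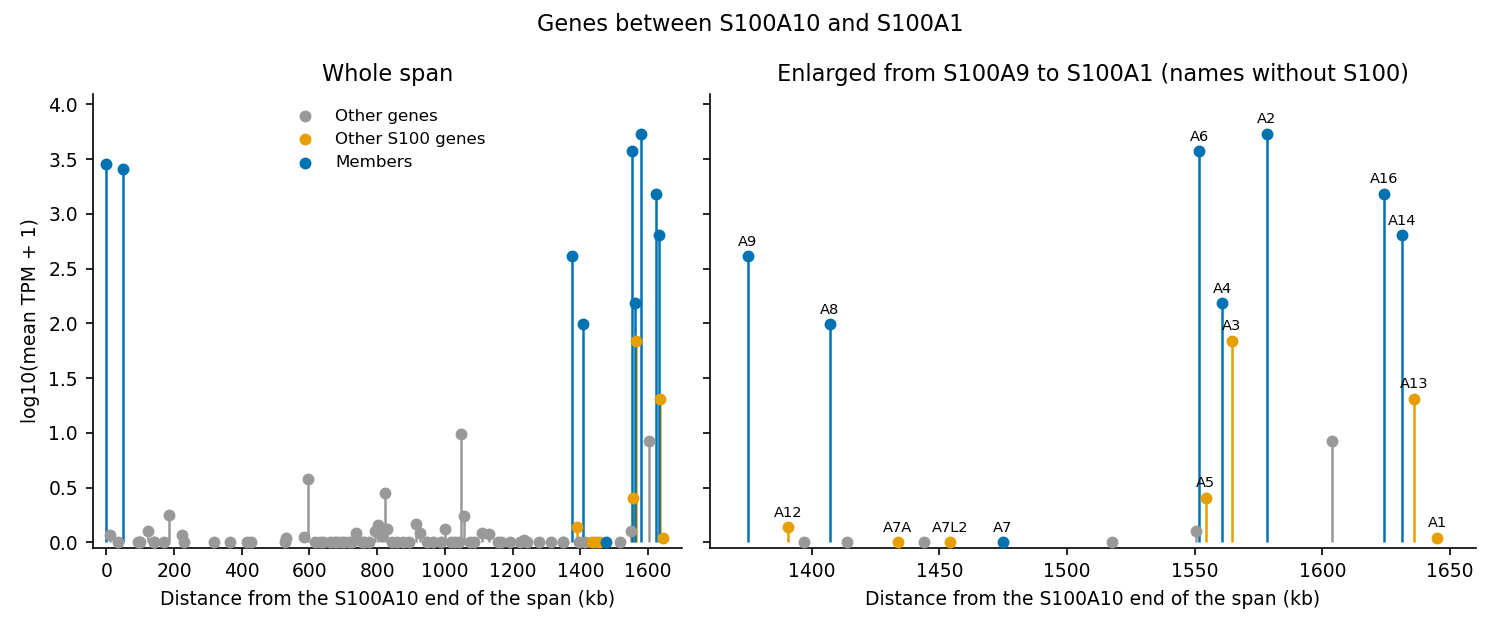
Mean level as log10(mean TPM + 1) of each annotated gene against its distance in kb from the S100A10 end of the span on chromosome 1, for the whole span at the left and enlarged from S100A9 to S100A1 at the right. The members (blue) form 2 groups at both ends of the span, the other S100 genes (orange) lie among them, and the 74 other genes (grey) between and among them sum to 26.3 TPM.

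Replicate 3 differed from the other replicates in the whole table, so the members were read against it. Of the 15640 genes at or above 1 TPM by the mean, 69.5% were lower in replicate 3 than in both other replicates and 9.78% were higher than in both. Of the 9 members with reads, S100A9, S100A10, S100A11, S100A14 and S100A16 were lower, and S100A2, S100A4, S100A6 and S100A8 were higher. The log2 ratio of replicate 3 to the mean of replicates 1 and 2 was 0.35 for S100A4, 0.33 for S100A8, 0.16 for S100A2 and 0.09 for S100A6. It lay between -0.32 for S100A16 and -0.13 for S100A9 in the 5 lower members, and the median of all 15640 genes was -0.25.

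When TPM was rescaled so that the protein-coding genes of the nuclear genome sum to 1000000, that median was -0.04. The same 4 members were higher in replicate 3, with log2 ratios of 0.56, 0.54, 0.36 and 0.29 for S100A4, S100A8, S100A2 and S100A6, and 2 members, S100A14 and S100A16, were lower. Of all these genes 28.2% were then higher and 41.0% lower. The canonical transcripts of the 4 higher members had 405 (S100A8), 431 (S100A6), 510 (S100A4) and 974 bases (S100A2), and those of the other 5 had 560 (S100A11) to 1169 bases (S100A16). The longest transcripts, to which the deposited values correspond, had 670 (S100A6), 715 (S100A8), 753 (S100A4) and 974 bases (S100A2) in the higher members. By that length S100A11 at 560, S100A9 at 570 and S100A10 at 668 bases were shorter than these 4. Among protein-coding genes at or above 10 TPM, the log2 ratio as deposited had a median of -0.18 for the 530 genes with a canonical transcript under 1000 bases and -0.25 for the 7821 longer ones. The part of length and of replicate 3 itself in these differences was not tested.

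**Figure D4:**
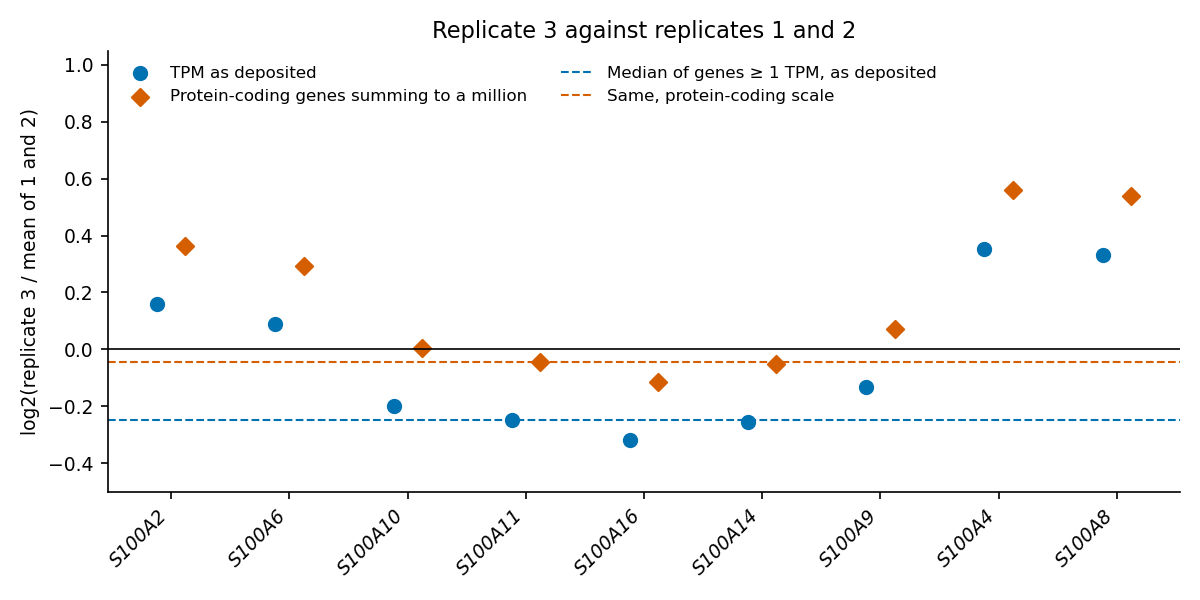
The log2 ratio of TPM in replicate 3 to the mean of replicates 1 and 2 for the 9 members with reads, as deposited (circles) and with protein-coding genes summing to 1000000 (diamonds), with dashed lines for the median of the 15640 genes at or above 1 TPM. S100A2, S100A6, S100A4 and S100A8 lie above 0 on both scales, while S100A9 and S100A10 lie below 0 as deposited and at 0.07 and 0.00 after rescaling.

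The spread of the members between replicates was taken as the SD of log2(TPM + 1) of the deposited values. It had a median of 0.15 over the 9 members with reads, from 0.05 for S100A6 to 0.27 for S100A4. That median was 0.19 for the 15640 genes at or above 1 TPM and 0.15 for the 3369 at or above 50 TPM. Without replicate 3 the medians were 0.07 for the members and 0.11 for the 15640 genes, and with protein-coding genes summing to 1000000 they were 0.09 and 0.14.

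The partners of the S100 proteins were then read. Of 13 annexins, calcium-dependent membrane-binding proteins, 10 were at or above 1 TPM. ANXA2, which joins S100A10 in a tetramer at the plasma membrane, was the highest at 1556, 1429 and 1409 TPM, a mean of 1465 ± 79.9 (SD, n = 3). S100A10 was above it in every replicate, with a ratio of 1.93 ± 0.130 (SD, n = 3). With canonical lengths, 1541 in place of 3518 bases for ANXA2, the ratio was 0.846 ± 0.0571 (SD, n = 3) and S100A10 was below ANXA2 in every replicate. ANXA1 was measured at 467, 468 and 431 TPM, and the ratio of S100A11 to it was 5.58 ± 0.359 (SD, n = 3), or 3.53 ± 0.227 (SD, n = 3) with canonical lengths. ANXA13 had no reads.

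All 8 intracellular partners were at or above 1 TPM. MYH9, the heavy chain of non-muscle myosin IIA and a target of S100A4, was the highest at 534 ± 69.5 TPM, and SUGT1, bound by S100A6, the lowest at 24.0 ± 1.12 TPM (SD, n = 3 each). AHNAK, the large scaffold that binds the complex of S100A10 and annexin A2, was measured at 290.2, 372 and 263 TPM. CACYBP, the calcyclin-binding protein, was measured at 247, 220.2 and 207 TPM, and S100A6 was 16.8 ± 2.03 times as high (SD, n = 3), or 26.1 ± 3.16 times with canonical lengths (SD, n = 3).

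Of 10 receptors described for extracellular S100 proteins, 5 were at or above 1 TPM, near the share of 56.6% among protein-coding genes of the nuclear genome. BSG, or CD147, a receptor for S100A9, was the highest at 516, 533 and 444 TPM. AGER, which encodes RAGE, was measured at 5.98, 4.54 and 2.11 TPM from 50, 39 and 15 reads, with replicate 3 the lowest. TLR4 had 0.0449, 0.0146 and 0.0704 TPM from 3, 1 and 4 reads, and CD33 had 1 read in all, in replicate 3.

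**Figure D5:**
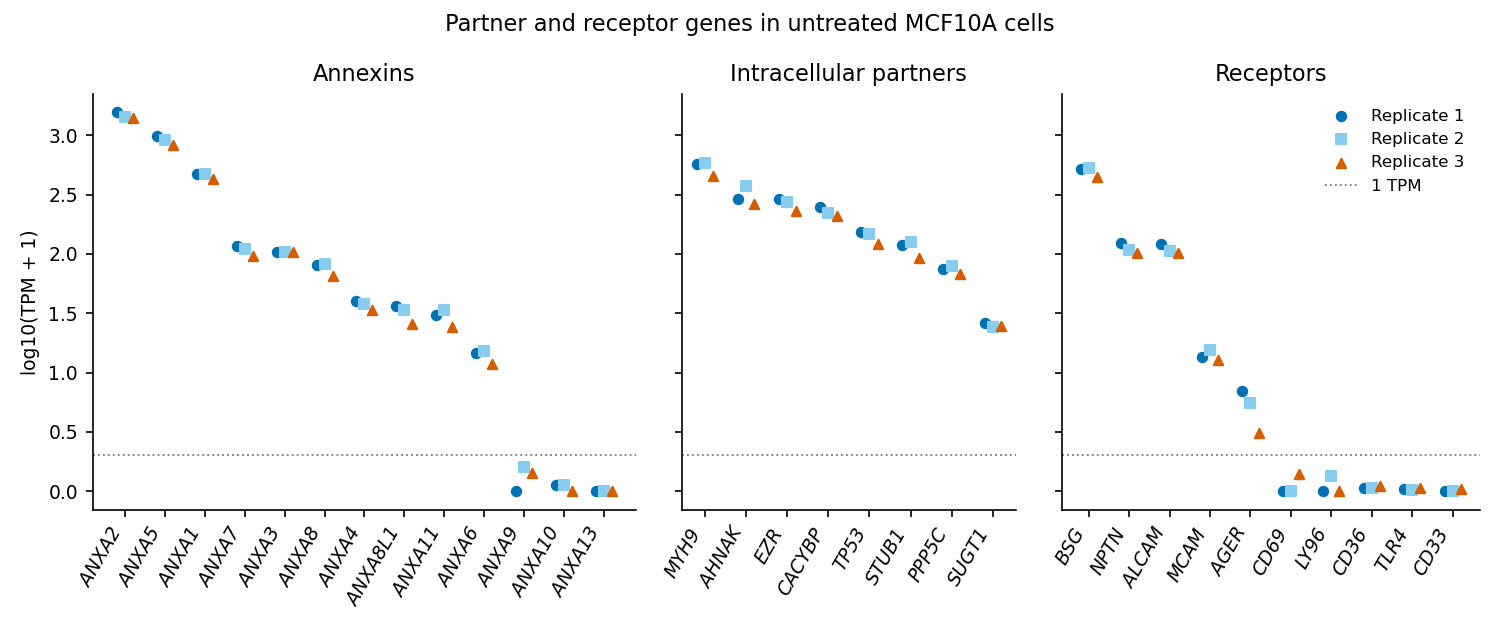
Level as log10(TPM + 1) in replicates 1, 2 and 3 of 13 annexins, 8 intracellular partners and 10 receptors, each ordered by the mean, with a dotted line at 1 TPM. The annexins reach 1465 TPM for ANXA2 and the partners lie between 24.0 and 534 TPM, whereas AGER lies at 4.21 TPM and TLR4 near 0.

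Other small EF-hand genes were read as a reference for calcium-binding proteins, without matching their size to that of the members. Of 8, 7 were at or above 1 TPM, and CALML5, of differentiated epidermis, had no reads. CAPNS1, the small subunit of calpain, was the highest as deposited at 299 ± 48.1 TPM (SD, n = 3). With canonical lengths CALM2 was above CAPNS1, at 583 against 266 TPM. All 6 transcription factors listed as known regulators of S100 genes were at or above 1 TPM, from CEBPA at 2.76 ± 0.846 TPM to CEBPB at 171 ± 26.6 TPM (SD, n = 3 each). TP63, the basal epithelial factor, was measured at 49.8 ± 6.15 TPM (SD, n = 3).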

How the data were processed

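Libraries were prepared from 300 ng of RNA depleted of ribosomal RNA. By the paper's methods, the authors used Seq2science for mapping to hg38 and for counting, and the submitters' processing notes name STAR, fastp and MultiQC. The authors deposited TPM values of 62754 genes for each replicate, and 62700 were found in GENCODE 44. All columns were used. Which annotation release was counted, and whether strand was used, is not given in the sources used here.

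TPM multiplied by the length of the longest transcript, less 1 base per exon, was divided by its smallest value above 0, which gave whole numbers within 0.01 for 100% of genes and was taken as reads. Simulated reads of 62700 genes, turned to TPM with these lengths, were returned at 100% with the same lengths. This checks the arithmetic only and cannot show which lengths the deposited values used. For the canonical length, TPM was computed again from these reads over annotated genes.

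The members and the gene lists, 93 genes in 11 lists, were chosen with earlier results of these data known. Named were all members, other S100 genes at or above 1 TPM by the mean or with shared exons, the highest and lowest gene of each list, ANXA1, ANXA2, CACYBP, AHNAK, AGER and TLR4, the 3 genes most like S100A2 and the 3 highest other genes of the span. Genes named beside these were chosen after their values were seen. As 1 condition was measured, no test was run. A withheld item of the lists is not reported here. Promoter windows came from RefSeq and matched all 10 members. Python 3.11.15, numpy 2.4.6, pandas 2.3.3 and matplotlib 3.10.9 were used.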

Additional observations from a re-analysis of the deposited data

How the results depend on the processing

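No paired comparison of conditions was possible because no second condition was measured. Pairs of genes were compared within each replicate. With the canonical transcript length, 8 of 10 member means moved by more than 1 SD: 4414 for S100A2, 4761 for S100A6, 2303 for S100A10, 2074 for S100A11, 1244 for S100A16, 335 for S100A9, 183 for S100A4 and 140.3 TPM for S100A8. Of these, S100A2, S100A9, S100A10, S100A11 and S100A16 kept their length, since their longest transcript is the canonical one. They moved only because TPM was scaled again with the new lengths of other genes. The members' share of TPM was then 1.61%, the ratio of S100A8 to S100A9 0.421, that of S100A10 to ANXA2 0.846 and the rank of S100A2 13. With protein-coding nuclear genes summing to 1000000, which raises every gene of a replicate by 1 factor, the means were 6731 for S100A2, 4665 for S100A6, 3489.6 for S100A10, 3140.4 for S100A11, 1881 for S100A16, 784 for S100A14, 507 for S100A9, 189 for S100A4 and 122 TPM for S100A8. The share was 2.15%, and 2 in place of 5 members were lowest in replicate 3. When 1 replicate was left out, the rank of S100A2 lay between 10 and 12, and the number of myeloid markers at or above 1 TPM between 1 and 2 (a setting added once the data had been seen). The median SD of log2(TPM + 1) over all 10 members was 0.13, 0.05 without replicate 3 and 0.08 with that rescaling. No mean of 3 values can shift by its SD when 1 is dropped, so the unmoved member means say nothing about stability. The counts of members, annexins and receptors at or above 1 TPM stayed within 1.5 times under the cutoffs of 0.5 and 2 TPM and without each replicate, while that of other S100 genes, 3, lay between 2 and 4. Depth limits what can be said of S100A5, S100P, S100A12, S100A1 and the genes at 0 reads.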
